A study of Homo sapiens with 6 samples.

Results

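PI3, SLPI and WFDC3 are 3 human genes whose proteins carry the whey acidic protein (WAP) domain, and they were followed here as 3 of the 60589 genes listed in an RNA-seq table of SNU449 cells. They were chosen by symbol after their values in the knockdown and control libraries of this table had been seen. SNU449 is an established line from a human hepatocellular carcinoma. Cells received an siRNA against MAD2L1 (siMAD2L1, 3 libraries) or a control siRNA (siControl, 3 libraries) and were collected at day 3. Both groups were the same line, and the titles put all 3 knockdown libraries under MAD2L1, while the treatment field names MAD2L2 for replicate 2 and MAD2L3 for replicate 3. MAD2L1 is a spindle checkpoint protein, and the question behind the pair of groups is how gene expression in liver cancer cells differs once its transcript is lowered. Every value is in TPM, a level per transcript scaled by transcript length and library total, so genes can be compared within a library. How many reads stand behind a level cannot be read from TPM. Differences are on the log2(TPM + 1) scale, which understates the change of genes with low levels.

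The WAP domain is a small fold held together by disulfide bonds between conserved cysteines, and many proteins that carry it block serine proteases. PI3 encodes elafin, a secreted inhibitor of neutrophil elastase and proteinase 3 that can be fixed to the extracellular matrix by transglutaminases. SLPI encodes secretory leukocyte peptidase inhibitor, which blocks elastase and cathepsin G on mucosal surfaces and also acts on bacteria. WFDC3 is placed beside them by its WAP domains, and no protease target is assigned to it here. In epithelia, PI3 and SLPI are known for induction by inflammatory cytokines such as interleukin 1.

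The WAP signature is a run of 14 codons with 4 cysteines, and its coding sequence in each member is shown because it is what the 3 genes share. Both signatures of SLPI and the first and second of WFDC3 are given, the second being the one closest to PI3. The reading frame of PI3 had 117 codons with 1 signature, that of SLPI 132 codons with 2, and that of the WFDC3 transcript used here 231 codons with 4. The sequences are from GENCODE 29 transcripts (GRCh38), 5′ to 3′ on the coding strand, with the cysteine codons in capitals.
PI3, chr20:45176055-45176096, plus strand, exon 2 of 3: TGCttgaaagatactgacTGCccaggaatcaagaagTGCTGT
SLPI, first signature, chr20:45253627-45253668, minus strand, exon 2 of 4: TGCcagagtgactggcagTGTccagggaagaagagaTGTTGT
SLPI, second signature, chr20:45253042-45253083, minus strand, exon 3 of 4: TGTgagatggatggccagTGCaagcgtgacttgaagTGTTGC
WFDC3, first signature, chr20:45788971-45789012, minus strand, exon 3 of 7: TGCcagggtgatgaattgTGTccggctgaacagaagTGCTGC
WFDC3, second signature, chr20:45787888-45787929, minus strand, exon 4 of 7: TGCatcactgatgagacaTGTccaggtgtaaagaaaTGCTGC
The signature of PI3 shared 8 of 14 encoded amino acids with the first of SLPI and 9 of 14 with the second of WFDC3. These counts include the 4 cysteines, which the search for the signature required and which are therefore alike in every pair. A further position was limited by the search to aspartate or asparagine. Over the 42 bases, these pairs had 25 and 26 bases in common. The 2 signatures of SLPI shared 6 of 14 amino acids with each other, fewer than the first of them shared with PI3. By amino acids the closest pair was PI3 and the second signature of WFDC3. By bases it was a pair of copies within WFDC3, the second and the fourth, with 29 of 42 in common.

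MAD2L1 itself measured 4.47, 0.795 and 2.40 TPM in siMAD2L1 replicates 1, 2 and 3, against 14.5, 13.7 and 13.9 TPM in the siControl libraries. It stood at 18.2% of the siControl mean (log2 difference -2.22, SE 0.36, limma adjusted p = 0.0105), and its adjusted p was between 0.0547 and 0.0597 when siControl replicate 1, 2 or 3 was left out. MAD2L1 was lowest in replicates 2 and 3, the 2 libraries whose treatment field does not name MAD2L1. MAD2L2 measured 123, 154 and 138 TPM in siMAD2L1, against 150, 146 and 138 TPM in siControl (log2 difference -0.07, limma adjusted p = 0.698). In replicate 2, whose field names MAD2L2, the MAD2L2 level of 154 TPM was thus above each siControl library. Transcripts of mitochondrially encoded genes took 9.45%, 9.21% and 10.9% of the TPM in siMAD2L1, against 15.3%, 15.2% and 15.3% in siControl. Hepatocyte markers were low in both groups: albumin (ALB) was at 0.122 to 0.441 TPM in siMAD2L1 and at 0.237 to 0.451 TPM in siControl, and 4 of 16 markers (APOA2, APOB, APOC3 and TTR) were listed at 0 in all 6 libraries. The 16 summed to 14.1 to 21.5 TPM in siMAD2L1 and 22.6 to 26.1 TPM in siControl. Of these, 1 of 5 tested fell (20% called, against 9.78% of all tested genes). It was TF, which encodes transferrin (log2 difference -0.97, limma adjusted p = 0.0181, and 0.0677 to 0.0870 without siMAD2L1 replicate 3 or siControl replicate 1 or 3). Of the leukocyte markers, PTPRC, which encodes the pan-leukocyte antigen CD45, was at most at 0.06 TPM in siMAD2L1 and at most at 0.045 TPM in siControl. The summed level of the 13 leukocyte markers was 130 to 150 TPM in siMAD2L1 and 69.8 to 76.9 TPM in siControl, nearly all of it CD68, a lysosomal glycoprotein (137 ± 11.0 TPM and 65.8 ± 3.55 TPM, SD, n = 3 each; log2 difference 1.05, limma adjusted p = 0.00114). CD68 was the 1 called of 3 tested leukocyte markers (33.3% called, against 9.78% of all tested genes). CD163, CD3E, CXCR2, FCGR3B and NKG7 were listed at 0 in all 6 libraries. The squamous and glandular epithelial markers summed to 118 to 120 TPM in siMAD2L1 and 111 to 129 TPM in siControl. Of these, 7 of 20 were listed at 0 in all 6 libraries. By limma, 0 of 4 tested members were called (against 9.78% of all tested genes), with 0 at an unadjusted p under 0.05. With 4 tested genes, 0 calls cannot be set apart from that share. The fibroblast and endothelial markers summed to 324 to 357 TPM in siMAD2L1 and 494 to 573 TPM in siControl. Of 3 tested, 1 was called (33.3%, against 9.78% of all tested genes). It was COL1A2, a collagen I chain, which was lower (log2 difference -0.74, limma adjusted p = 0.00187). The part of these markers in the values of PI3, SLPI and WFDC3 was not tested.

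PI3 and WFDC3 were several times higher in each siMAD2L1 library than in any siControl library, and SLPI was higher in only 2 of the 3. PI3 (ENSG00000124102) lies on the plus strand of chromosome 20, from 45174876 to 45176544 in GRCh38. It measured 68.7, 65.7 and 45.5 TPM in siMAD2L1 replicates 1, 2 and 3, against 13.4, 12.2 and 9.49 TPM in siControl. The lowest siMAD2L1 library, replicate 3, was still above the highest siControl library. The means were 60.0 ± 12.6 TPM in siMAD2L1 and 11.7 ± 2.00 TPM in siControl (SD, n = 3 each), a ratio of 5.13 and a log2 difference of 2.25 on the log2(TPM + 1) scale. In a bulk library, more RNA per cell cannot be told apart from more cells that express the gene.

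WFDC3 (ENSG00000124116) lies on the minus strand, from 45747944 to 45791932. It measured 35.2, 35.6 and 30.7 TPM in siMAD2L1, against 8.61, 9.24 and 6.91 TPM in siControl. Its groups were far apart and its siMAD2L1 libraries were close together, with an SD of 7.99% of the mean. The means were 33.8 ± 2.70 TPM in siMAD2L1 and 8.26 ± 1.20 TPM in siControl (SD, n = 3 each), a ratio of 4.10 and a log2 difference of 1.92. GENCODE 29 lists 13 WFDC3 transcripts, of which 4 are coding and 9 are not, and the deposited row joins WFDC3 to a locus from transcript assembly. The table therefore does not show which of these transcripts, or whether the coding ones, carried the higher level.

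SLPI (ENSG00000124107) lies on the minus strand, from 45252239 to 45254564. It measured 18.8, 15.3 and 7.15 TPM in siMAD2L1 replicates 1, 2 and 3, against 8.94, 8.21 and 7.42 TPM in siControl. Replicates 1 and 2 stood above the siControl libraries and replicate 3 below them, so the groups overlapped. The means were 13.8 ± 5.98 TPM in siMAD2L1 and 8.19 ± 0.759 TPM in siControl (SD, n = 3 each), a ratio of 1.68 and a log2 difference of 0.59. The difference was 0.97 without siMAD2L1 replicate 3 and 0.33 without siMAD2L1 replicate 1. By library, siMAD2L1 replicate 3 had the lowest value of all 3 members within its group, at 3.89 times the siControl mean for PI3, 3.72 times for WFDC3 and 0.872 times for SLPI, against 5.87, 4.26 and 2.30 times in replicate 1. The order of the siMAD2L1 libraries was thus not that of MAD2L1, which was lowest in replicate 2.

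**Figure D1:**
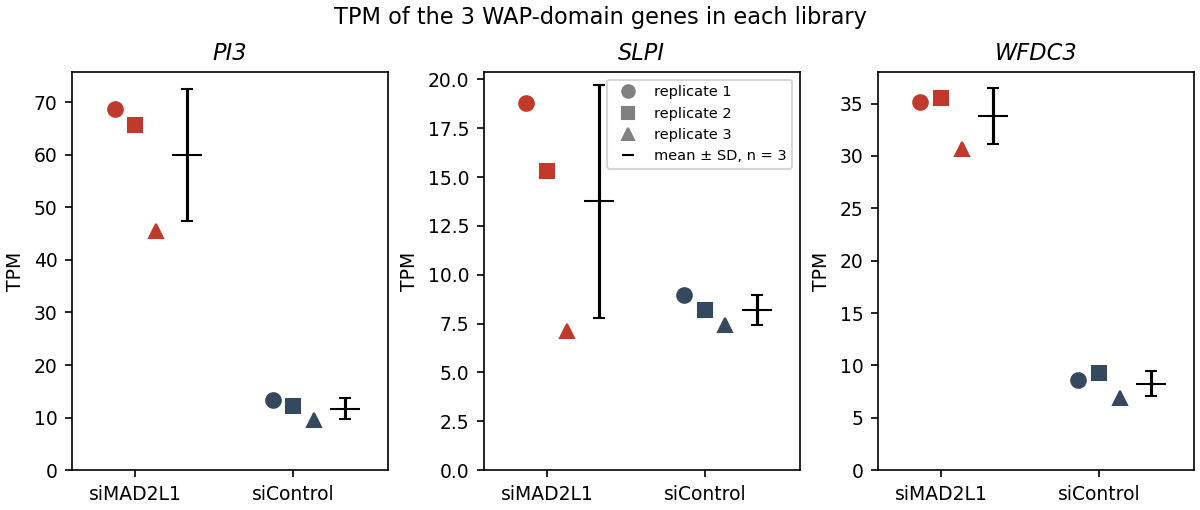
TPM (y axis, linear from 0, a separate scale for each gene) of PI3, SLPI and WFDC3 in the 3 siMAD2L1 and the 3 siControl libraries; points are libraries and the bar is the mean ± SD. PI3 and WFDC3 are apart in all libraries, whereas SLPI in siMAD2L1 replicate 3 (7.15 TPM) lies below the siControl libraries.

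Because these values chose the genes, no test is given for them. A filter of mean TPM 1 or more left 14790 genes, the 3 members among them, and 1667 of these (11.3%) had all 3 siMAD2L1 libraries above all 3 siControl libraries, as 2 of the 3 members had. Sorted by log2 difference from the highest, PI3 was number 13, WFDC3 number 20 and SLPI number 552 of the 14790. After mitochondrial genes and the 20 highest genes were taken out of the TPM total, the log2 differences were 2.23 for PI3, 1.90 for WFDC3 and 0.56 for SLPI.

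Within siControl the 3 genes were expressed at similar, moderate levels, and within siMAD2L1 they spread apart. PI3 had the highest TPM of the 3 in each of the 6 libraries. In siControl, SLPI and WFDC3 did not differ beyond their spread (8.19 ± 0.759 and 8.26 ± 1.20 TPM), and their order changed between libraries. In siMAD2L1 the order was PI3, WFDC3, SLPI in each library. The PI3 mean was above that of 85.0% of tested genes in siMAD2L1 and of 51.8% in siControl, the WFDC3 mean above 76.1% and 43.8%, and the SLPI mean above 57.0% and 43.6%.

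Ratios within a library do not depend on the library total. PI3 was at 3.65, 4.29 and 6.37 times SLPI in siMAD2L1 replicates 1, 2 and 3, against 1.496, 1.488 and 1.278 times in siControl. WFDC3 was at 1.87, 2.32 and 4.30 times SLPI in siMAD2L1, against 0.964, 1.13 and 0.932 times in siControl. Both ratios were higher in each siMAD2L1 library than in any siControl library, and highest in replicate 3, where SLPI was lowest. PI3 against WFDC3 moved less, with 1.95, 1.85 and 1.48 in siMAD2L1 and 1.55, 1.32 and 1.37 in siControl, and there the groups overlapped.

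The members sit in a cluster of WAP-domain genes on chromosome 20, with 75694 bases between PI3 and SLPI and 493379 bases between SLPI and WFDC3. Other members of the family were mostly at or near 0 TPM. A list of 18 genes held other WAP-domain genes and also SPINT3 and SPINT4 from the cluster. Of the 18, 7 (SPINT3 among them) were listed at 0 in all 6 libraries and 1 passed the filter of a mean TPM of at least 1. That gene, WFDC21P, a transcribed pseudogene on chromosome 17, measured 4.49, 2.74 and 3.26 TPM in siMAD2L1, against 8.14, 10.0 and 12.8 TPM in siControl. It fell, opposite in sign to the members (log2 difference -1.33, SE 0.21, limma adjusted p = 0.0105; adjusted p = 0.0540 without siControl replicate 2 and 0.0572 without siControl replicate 3). Within 500 kb of the members lay 13 genes of the list, none of which passed the filter. The highest of them, WFDC10B, named after its values were seen, measured 0.749, 2.02 and 1.57 TPM in siMAD2L1 and 0.187, 1.05 and 0.182 TPM in siControl, with overlapping groups. WFDC2, which encodes the ovarian cancer marker HE4 and was likewise named after its values were seen, was at most at 0.511 TPM in siMAD2L1 and at most at 0.429 TPM in siControl.

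Of 25 tested neighbours within 500 kb, 1 rose, 1 fell and 23 did not pass. That is 8% called, near the 9.78% of all 14790 tested genes (1446 genes at an adjusted p under 0.05, 525 higher and 921 lower). The median log2 difference of the 25 was 0.09, against -0.08 over all tested genes. The tested genes nearest to PI3 and SLPI were STK4, a Hippo pathway kinase, on the low-coordinate side (log2 difference 0.16, limma adjusted p = 0.604) and SDC4, the heparan sulfate proteoglycan syndecan 4, on the high-coordinate side (0.17, adjusted p = 0.164). PABPC1L, a poly(A)-binding protein gene, fell (-0.67, limma adjusted p = 0.0371), but in the fits that left out siMAD2L1 replicate 2 or 3 or any siControl library its adjusted p was between 0.0798 and 0.131.

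The neighbour that rose was DNTTIP1, a subunit gene of a histone deacetylase complex, which starts 4 bases beyond WFDC3 on the opposite strand. DNTTIP1 measured 213, 245 and 248 TPM in siMAD2L1, against 151, 152 and 138 TPM in siControl. Its groups did not overlap, and its lowest siMAD2L1 library was replicate 1, unlike WFDC3. The means were 236 ± 19.2 TPM in siMAD2L1 and 147 ± 8.08 TPM in siControl (SD, n = 3 each; ratio 1.602, log2 difference 0.67, SE 0.09, limma adjusted p = 0.00465). On the other side of WFDC3, the nearest tested gene was PIGT, a subunit of the enzyme that attaches GPI anchors (0.18, adjusted p = 0.222).

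**Figure D2:**
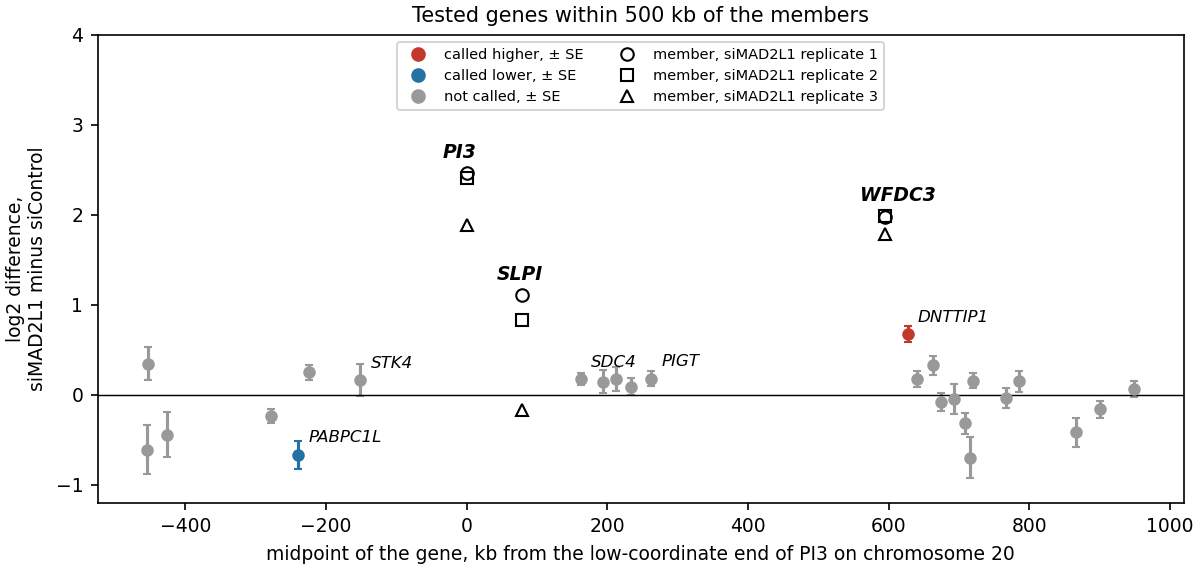
Log2 difference, siMAD2L1 minus siControl (y axis, log2(TPM + 1) scale), against the midpoint of each tested gene in kb from the low-coordinate end of PI3 (x axis). Filled points are the 25 neighbours with limma SE and open symbols are single siMAD2L1 libraries of the members; DNTTIP1, next to WFDC3, is the neighbour called higher, at 0.67.

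The start regions of WFDC3 and DNTTIP1 overlap, and the sequence is shown because both neighbours were higher in siMAD2L1. The RefSeq promoter windows (250 bases before to 50 after a gene's start, GRCh38.p14) shared 170 bases, from 45791834 to 45792003. The WFDC3 window, chr20:45791834-45792133, is given on the minus strand with the cAMP response element (CRE) letters TGACGTCA in capitals.
WFDC3 promoter: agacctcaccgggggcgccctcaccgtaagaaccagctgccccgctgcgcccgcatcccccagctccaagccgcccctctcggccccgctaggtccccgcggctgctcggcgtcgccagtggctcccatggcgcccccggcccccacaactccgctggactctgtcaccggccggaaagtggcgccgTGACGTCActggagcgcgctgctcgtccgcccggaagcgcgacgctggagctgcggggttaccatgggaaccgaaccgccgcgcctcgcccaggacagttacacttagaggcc
The CRE letters begin 63 bases before the RefSeq start of WFDC3, inside the shared stretch, and read the same on both strands. They were present in 1.85% of 35116 promoter windows of this length. The AP-1 letters TGANTCA (7.71% of windows), the NF-kB site (11.3%) and the C/EBP letters TTNNGNAA (36.8%), each searched on both strands, were not in the WFDC3 window. A match is a string of letters and does not show binding. Promoter entries were not matched for PI3 and SLPI.

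Proteases that elafin and SLPI are known to block were mostly listed at or near 0 TPM. Of 23 serine protease genes of the elastase, trypsin, chymase and tryptase groups, 12 were listed at 0 in all 6 libraries, among them CTSG (cathepsin G). Tested were 3, of which 1 was called (33.3%, against 9.78% of all tested genes). ELANE, neutrophil elastase, was at 0, 0.329 and 0.185 TPM in siMAD2L1 and at 0 in siControl. PRTN3, proteinase 3, was at 9.90, 11.5 and 7.81 TPM in siMAD2L1, against 8.46, 10.3 and 9.17 TPM in siControl, and the groups overlapped (log2 difference 0.05, limma adjusted p = 0.883). PRSS23, a secreted serine protease, fell to 31.8, 25.9 and 28.4 TPM in siMAD2L1, against 42.9, 42.3 and 46.3 TPM in siControl (-0.60, SE 0.10, limma adjusted p = 0.0142), but its adjusted p was between 0.0526 and 0.0728 in the fits without siMAD2L1 replicate 3 or any siControl library. Of 26 tissue kallikreins, membrane serine proteases and related genes, 4 were tested and 0 called by limma (against 9.78% of all tested genes), with 2 at an unadjusted p under 0.05. Among them F2RL1, the protease-activated receptor PAR2, had a log2 difference of -0.41 (limma adjusted p = 0.137, and 0.0144 without siMAD2L1 replicate 1), and the protease gene FAP one of 0.34 (adjusted p = 0.368).

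Among other families of protease inhibitors, a few genes rose and most did not pass. Of 11 tested Kunitz, Kazal and macroglobulin inhibitor genes, 2 rose and 0 fell (median log2 difference 0.19). This is 18.2% called, against 9.78% of all tested genes. SPINK1, a trypsin inhibitor, measured 14.2, 28.9 and 11.1 TPM in siMAD2L1, against 5.26, 5.65 and 2.60 TPM in siControl (log2 difference 1.73, SE 0.36, limma adjusted p = 0.0252). Its highest library was siMAD2L1 replicate 2, and its adjusted p was 0.0788, 0.0696 and 0.0969 without siControl replicate 1, 2 or 3. TFPI2, a secreted Kunitz inhibitor of plasmin and trypsin, measured 299, 233 and 227 TPM in siMAD2L1, against 109, 107 and 112 TPM in siControl (1.19, SE 0.11, limma adjusted p = 0.0016). Its groups were far apart, and it remained called in each of the 17 alternatives.

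Of 11 tested serpins, 1 rose, 2 fell and 8 did not pass (median -0.13). This is 27.3% called, against 9.78% of all tested genes. SERPINB8 rose (0.71, limma adjusted p = 0.0464), while SERPINA5, the protein C inhibitor (-0.95, adjusted p = 0.0101), and SERPINA3, alpha-1-antichymotrypsin (-0.55, adjusted p = 0.0473), fell. SERPINA5 had adjusted p of 0.0660 and 0.0543 without siControl replicate 1 or 2. SERPINB8 had adjusted p between 0.0616 and 0.159 without siMAD2L1 replicate 1 or 3 or any siControl library, and SERPINA3 between 0.0719 and 0.155 without siMAD2L1 replicate 2 or 3 or any siControl library. Under other scalings the adjusted p of SERPINA3 was 0.0553 (upper-quartile) and that of SERPINB8 0.0512 (mitochondrial and the highest genes taken out of the total). Of 3 tested cystatins, CSTB, which blocks cysteine cathepsins inside cells, rose to 5957 ± 470 TPM in siMAD2L1, against 3964 ± 115 TPM in siControl (SD, n = 3 each, 0.58, limma adjusted p = 0.00498). The median of the 3 was 0.08, and 33.3% of them were called, against 9.78% of all tested genes.

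**Figure D3:**
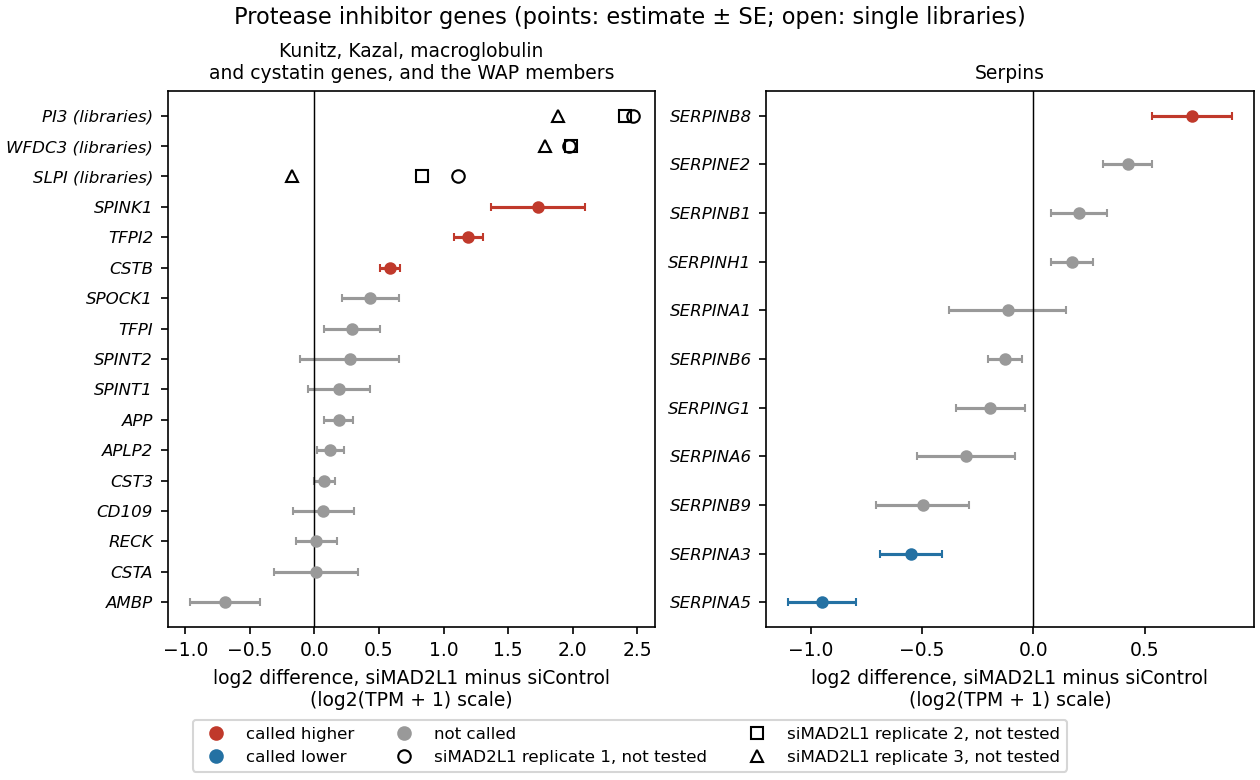
Log2 difference, siMAD2L1 minus siControl (x axis, log2(TPM + 1) scale), of the tested Kunitz, Kazal, macroglobulin and cystatin genes (left) and serpins (right), with limma SE. Open symbols give single siMAD2L1 libraries of PI3, WFDC3 and SLPI against the siControl mean. The 3 PI3 libraries lie at 1.89 to 2.47 and the 3 WFDC3 libraries at 1.78 to 1.99. Single libraries and estimates over 3 libraries are unlike measures, so their positions are not compared.

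Genes that act with elafin and SLPI in skin and mucosa were largely listed at 0 TPM. Of 25 symbols for transglutaminases and cornified envelope proteins, 18 genes were listed at 0 in all 6 libraries. By limma, 0 of 2 tested were called (against 9.78% of all tested genes), with 1 at an unadjusted p under 0.05. With 2 tested genes, 0 calls cannot be set apart from that share. TGM2, a transglutaminase that cross-links matrix proteins, measured 12.3 ± 0.345 TPM in siMAD2L1 and 16.7 ± 0.766 TPM in siControl (SD, n = 3 each; -0.41, limma adjusted p = 0.0503, and 0.0410 without siMAD2L1 replicate 1). CNFN was at 0.27 (adjusted p = 0.529). Of 20 epithelial antimicrobial genes, 14 were listed at 0, among them DEFB4A and S100A7. Of 2 tested antimicrobial genes, 0 were called by limma (against 9.78% of all tested genes), with 0 at an unadjusted p under 0.05. LCN2, a siderophore-binding protein often expressed with them in inflamed epithelia, averaged 14.6 ± 2.94 TPM in siMAD2L1 and 18.0 ± 3.33 TPM in siControl (SD, n = 3 each; -0.29, limma adjusted p = 0.365). LYZ, lysozyme, was at -0.20 (adjusted p = 0.698). Of 6 tested partners of SLPI, 1 rose, S100A10, an annexin A2 ligand (0.28, limma adjusted p = 0.0370), whose adjusted p was between 0.0681 and 0.160 without siMAD2L1 replicate 2 or 3 or any siControl library. Its call was also lost under other scalings, with 0.16 (adjusted p = 0.146) after quantile normalization, 0.33 (0.0591) after upper-quartile scaling and 0.23 (0.0652) with mitochondrial and the highest genes taken out of the total. The median of the 6 was 0.02, and 16.7% of them were called, against 9.78% of all tested genes.

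In a list of 30 cytokine and receptor genes drawn up as upstream of PI3 and SLPI in epithelia, some rose and others fell. EGF, IFNG and IL17A were listed at 0 in all 6 libraries. Whether any gene of the list acts on PI3 or SLPI in these cells was not tested. Of 17 tested cytokine and receptor genes, 5 rose, 2 fell and 10 did not pass (median 0.39, against -0.08 over all tested genes). This is 41.2% called, against 9.78% of all tested genes. The share is only a description, because the list was chosen with results of these data known. IL1B measured 104, 83.6 and 61.3 TPM in siMAD2L1, against 25.3, 25.6 and 26.7 TPM in siControl (1.61, SE 0.17, limma adjusted p = 0.00258). Among its siMAD2L1 libraries, replicate 1 was highest and replicate 3 lowest. PI3, SLPI and TFPI2 had this order too, whereas WFDC3, IL36G and IL6 did not, and a link between these orders was not tested. IL36G, an epithelial member of the interleukin 1 family, measured 12.7, 14.3 and 10.0 TPM in siMAD2L1, against 4.52, 3.31 and 2.29 TPM in siControl (1.63, SE 0.22, limma adjusted p = 0.00623). IL6 measured 273, 216 and 222 TPM in siMAD2L1, against 96.7, 105 and 86.9 TPM in siControl (1.29, SE 0.11, limma adjusted p = 0.00136). IL36RN, the interleukin 36 receptor antagonist, also rose (0.76, adjusted p = 0.0161), with adjusted p of 0.0610, 0.0836 and 0.0791 without siMAD2L1 replicate 3, siControl replicate 1 or siControl replicate 3. The remaining called genes of the list were named after their values were seen. HBEGF, an EGF receptor ligand, rose (0.52, limma adjusted p = 0.0396), and IL17RC, an interleukin 17 receptor chain (-0.64, adjusted p = 0.0252), and TNFRSF1A, the tumour necrosis factor receptor TNFR1 (-0.68, adjusted p = 0.00742), fell. Adjusted p was between 0.0728 and 0.156 for HBEGF and between 0.0731 and 0.110 for IL17RC without siMAD2L1 replicate 2 or 3 or any siControl library, and 0.0507 for TNFRSF1A without siControl replicate 1. With mitochondrial and the highest genes taken out of the total, that of HBEGF was 0.0511.

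Of 20 tested genes in a list of transcription factors drawn up for PI3 and SLPI, 5 rose, 2 fell and 13 did not pass (median 0.18). This is 35% called, against 9.78% of all tested genes. Whether each of these factors acts at PI3 or SLPI was not tested. RELB, an NF-kB subunit, rose to 64.2, 75.6 and 68.3 TPM in siMAD2L1, against 40.8, 47.5 and 40.2 TPM in siControl (0.68, SE 0.10, limma adjusted p = 0.00831; 0.0572 without siControl replicate 1). JUN, an AP-1 subunit, rose to 239, 226 and 228 TPM in siMAD2L1, against 143, 157 and 137 TPM in siControl (0.67, SE 0.08, limma adjusted p = 0.0034). ELF3, an epithelial ETS factor, fell (-0.62, adjusted p = 0.0274), as did SMAD3, a TGF-beta signal transducer (-0.51, adjusted p = 0.0305). In the fits without siMAD2L1 replicate 2 or 3 or any siControl library, adjusted p was between 0.0588 and 0.114 for ELF3 and between 0.0790 and 0.125 for SMAD3. The other genes that rose, named after their values were seen, were JUND (0.50, limma adjusted p = 0.0175), an AP-1 subunit, CEBPB (0.47, adjusted p = 0.0212), a C/EBP factor, and RELA (0.46, adjusted p = 0.0271), an NF-kB subunit. Their adjusted p lay between 0.0548 and 0.105 when siMAD2L1 replicate 3 or siControl replicate 1 or 3 was left out, and also without siControl replicate 2 for JUND and CEBPB and without siMAD2L1 replicate 2 for CEBPB and RELA. Together, the 11 lists other than cell markers held 80 tested genes, of which 15 rose, 8 fell and 57 did not pass. This is 28.75% called, against 9.78% of all 14790 tested genes; the lists were chosen with results of these data known, and the shares are a description.

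**Figure D4:**
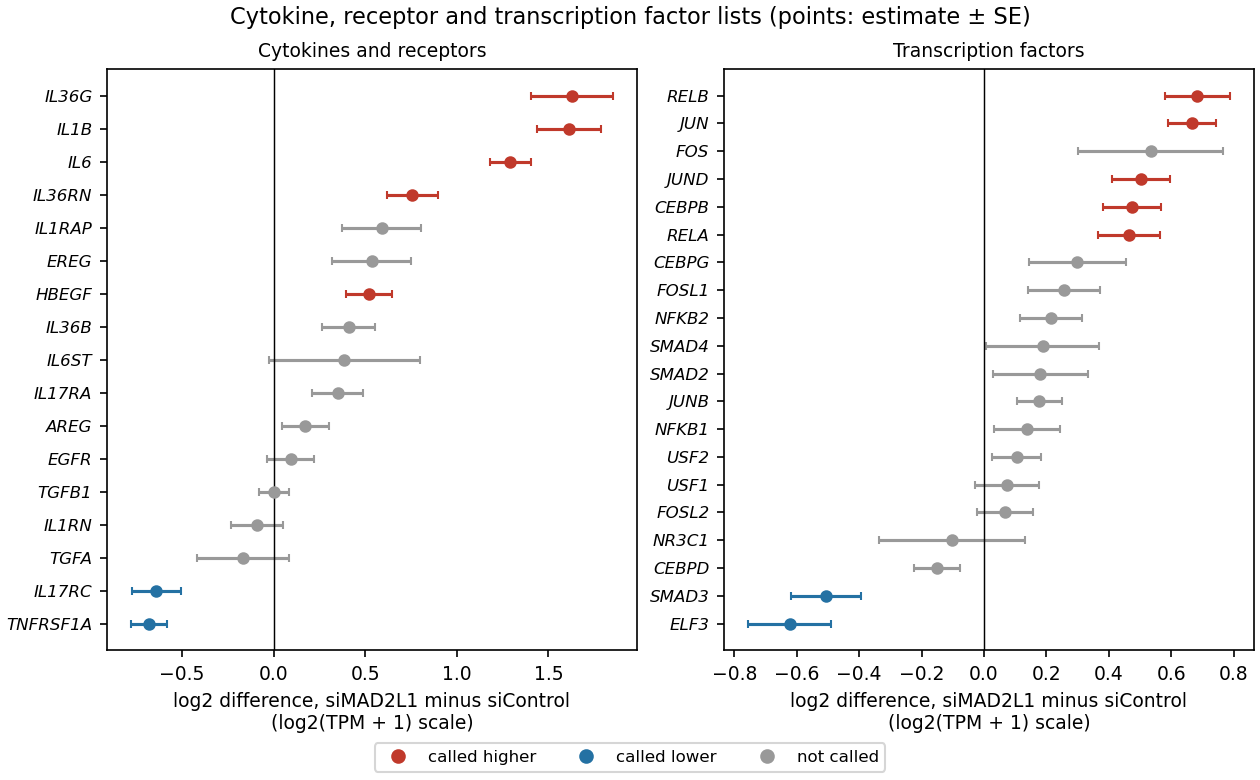
Log2 difference, siMAD2L1 minus siControl (x axis, log2(TPM + 1) scale, with limma SE), of the 17 tested cytokine and receptor genes (left) and the 20 tested transcription factor genes (right). IL36G and IL1B lie at 1.63 and 1.61, and RELB and JUN at 0.68 and 0.67.

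The genes most like each member were sought by Pearson correlation of log2(TPM + 1) over the 6 libraries, among tested genes with a symbol. Genes with clone-style, LINC or assembly names were left out of this search and its ranks. The correlations share the difference between the groups and are a description with no test. For PI3 the nearest genes were LIF, a cytokine of the interleukin 6 family (r = 0.998; 206 TPM in siMAD2L1 and 115 TPM in siControl), ARPC2 (0.997), CUL4A (0.997), DRAXIN (0.996) and TTC9 (0.995). For WFDC3 they were CCDC71L (0.999; 22.9 TPM in siMAD2L1 and 14.1 TPM in siControl), GLTP (0.999), the transcription factor MAFF (0.998), the ERK phosphatase DUSP6 (0.997) and BMPER (0.997). PI3 and WFDC3 correlated with each other at 0.994, and by this measure WFDC3 was number 9 among the genes most like PI3. SLPI had no match as close: its nearest were ATG4A (0.979; 8.97 TPM in siMAD2L1 and 7.54 TPM in siControl), ACTR3C (0.972), KLC4 (0.972), GOLGA6L5P (0.972) and ZNF133 (0.970). SLPI correlated at 0.728 with PI3 and at 0.657 with WFDC3. A high correlation does not mean a change of like size. Log2 differences were 0.29 (CUL4A) to 0.83 (LIF) for the genes nearest PI3 and 0.40 (GLTP) to 1.42 (DUSP6) for those nearest WFDC3. For those nearest SLPI they were 0.09 (KLC4) to 0.51 (ACTR3C). CUL4A, DRAXIN, TTC9 and the genes nearest SLPI were not called by limma, and the rest were called higher.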

How the data were processed

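RNA of 3 siMAD2L1 and 3 siControl libraries was measured. The authors deposited TPM values, 1 column per library. Per the submitters' processing notes, fastp, HISAT2, DESeq2 1.16.1 and hg38 were used. The counter, annotation, strand setting and depth were not given in the sources used here. Columns were matched to the titles. No label says that replicates came from separate cultures, so a p-value here covers only the scatter among these libraries, which may be technical.

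Of 60589 genes, 14790 passed a filter of mean TPM 1 or more and were tested on log2(TPM + 1) with limma 3.58.1 (R 4.3.3, intensity trend, no covariates), with Benjamini-Hochberg adjustment and calls under 0.05. The fit was checked on simulated data. Positions and coding sequences are from GENCODE 29 and the promoter is from RefSeq. Python 3.11.15 was used for sequence searches and plots. The members and lists were chosen with earlier results of these data known. A serpin and a leukocyte marker were taken out of the lists and their counts and are not reported here. In each list the rule named up to 4 called genes by size of change, and if no gene was called, the 2 most abundant. It also took the nearest tested neighbours, the 5 genes most like each member, MAD2L1 and MAD2L2, and not every gene it took is described. The alternatives were other pseudocounts, filters and scalings, limma without a trend, a replicate block, each library left out, and siMAD2L1 replicate 1 alone.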

Additional observations from a re-analysis of the deposited data

How the results depend on the processing

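Leaving out 1 library at a time gave log2 differences of 2.12 to 2.44 for PI3, 1.81 to 1.99 for WFDC3 and 0.33 to 0.97 for SLPI. Over the pseudocounts and scalings tried they were 2.23 to 2.34, 1.90 to 2.03 and 0.56 to 0.69. With siMAD2L1 replicate 1 alone against siControl the SLPI difference was 1.11. Genes called numbered 1446 (525 higher, 921 lower), against 727 with no filter, 952 in limma without a trend and 868 with the replicate block. They ranged from 326, when siControl replicate 1 was left out, to 2422, when siMAD2L1 replicate 1 was. Calls lower in siMAD2L1 were 63.7% of all calls, against 52.5% with upper-quartile scaling, 50.5% with quantile normalization, 73.2% with mitochondrial and the 20 highest genes taken out, 70.4% without siMAD2L1 replicate 1 and 45.2% with siMAD2L1 replicate 1 alone. Of the listed genes 23 were called, against 13 with no filter, 13 without a trend and 15 with siMAD2L1 replicate 1 alone, and 7 to 28 with a library left out. Of the neighbours 2 were called, against 1 with no filter, 1 without a trend, 1 with the replicate block and 1 with siMAD2L1 replicate 1 alone, and 1 to 6 with a library left out. CEBPB, ELF3, HBEGF, PABPC1L, RELA, S100A10, SERPINA3, SERPINB8, SMAD3 and SPINK1 lost their calls both with no filter and without a trend, IL17RC and TF with no filter and JUND without a trend. HBEGF, IL17RC, IL36RN, PABPC1L, S100A10, SERPINB8 and SMAD3 were among the genes that lost their calls with the replicate block. Deviations of libraries with the same number correlated at 0.0190, 0.00898 and 0.0631. Such low values cannot settle whether the numbers pair the samples. Unknown depth limits what can be said of genes near 0 TPM. For these changes the cause was not tested.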
